A study of Mus musculus with 12 samples.

Results

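The 31 genes described here act in homologous recombination, in the Fanconi anaemia pathway and in the DNA damage checkpoint. They were listed by gene name, with earlier results of these data already known, and all 31 were found by symbol among the 22036 known genes of a table of 33625 genes. RNA had been sequenced from MODE-K cells, a line derived from the epithelium of mouse small intestine, labelled wild type and grown in serum-containing medium. There were 12 libraries in 4 groups of 3: cells taken 48 h after 12 Gy of gamma rays from a cobalt source (12Gy_48h), cells taken 24 h after 12 Gy (12Gy_24h), cells taken 48 h after 4 Gy (4Gy_48h), and unirradiated cells taken at 0 h (control). The controls were taken at 0 h, so radiation and time in culture cannot be told apart in any comparison with control. No unirradiated cells were taken at 24 h or 48 h. Time since irradiation and time in culture therefore cannot be told apart between 12Gy_48h and 12Gy_24h. The labels speak of parallel groups and do not call them separate cultures, so the p-values reflect only how far these 12 libraries vary, a spread that could be technical.

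Ionising radiation breaks both DNA strands. A break is marked by phosphorylation of the histone variant H2AX, read by MDC1, and then either held for end joining by 53BP1 and RIF1 or cut back to single-stranded DNA by the MRE11, RAD50 and NBN complex with CtIP (the product of Rbbp8), EXO1 and the helicase BLM. BRCA1 with BARD1, PALB2 and BRCA2 then directs repair from the sister chromatid, helped by RAD51C, XRCC2, XRCC3, RAD51AP1 and RAD54L. The Fanconi core proteins attach ubiquitin to FANCD2 and FANCI at crosslinked or stalled DNA, and the kinases ATM, ATR, CHK1 and CHK2 halt the cell cycle. Much of this machinery is switched by modification of existing proteins, which RNA counts do not measure, and many of its genes are transcribed mainly in S and G2 phase.

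Promoter sequences are shown first because recombination and Fanconi genes often share motifs of cell cycle control. Of the 31 genes, 23 had a promoter in the RefSeq table (GRCm38.p6); Rbbp8, Xrcc2, Rad50, Nbn, Exo1, Fancd2, H2afx and Rif1 had no entry. Motifs were searched on either strand in the 250 bases before the RefSeq gene start. Gene spans printed below are from GENCODE, and some begin farther upstream. The windows of Fancc, Fanci, Fancl and Chek1 and a window of Rad51c lie wholly inside those spans, as does the TTTCCCGC motif of Fancg. The motif CCAAT was present in 13 of the 23 genes (56.5%) and in 37.5% of all 27025 genes of the table. TTTCCCGC, a form of the E2F site, was present in 5 of 23 (21.7%), against 1.03% of all genes; the other form searched, TTTGGCGC, was present in 0 of 23, against 0.485%. TTTGAA, the core of the cell cycle homology element, was present in 1 of 23, against 18.3%. The other-strand spellings are ATTGG, GCGGGAAA, GCGCCAAA and TTCAAA, and none of the 4 motifs contains another. These counts are of letters, not of bound sites. The 5 genes with TTTCCCGC are printed here. Of them, 3 passed in some fit described below: Brca2 (with known genes alone) and Bard1 as lower, and Fancg as higher. Chek2 and Mdc1 did not pass. Among all tested genes 11 of 28 passed in either fit, and a link between motif and call was not tested. Each run is read 5′ to 3′ on the gene's strand, and capitals mark the motif.
Brca2, chr5:150522442-150522471, plus strand: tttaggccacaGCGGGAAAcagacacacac
Bard1, chr1:71103163-71103192, minus strand: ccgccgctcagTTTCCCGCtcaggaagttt
Fancg, chr4:43010335-43010364, minus strand: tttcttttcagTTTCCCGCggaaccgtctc
Chek2, chr5:110839820-110839849, plus strand: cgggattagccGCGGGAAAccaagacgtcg
Mdc1, chr17:35841471-35841497, plus strand: tcttcagcctgTTTCCCGCcggtagcc

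Whole promoters are given for Trp53bp1, called higher in both fits at 12Gy_48h and over all genes alone at 12Gy_24h and 4Gy_48h, and for Rad51ap1, called lower in both fits at 12Gy_48h (the fits are described below). In the Trp53bp1 promoter none of the 4 motifs was found, while Rad51ap1 holds 2 CCAAT motifs, both read as ATTGG (capitals).
Trp53bp1, chr2:121271408-121271657, minus strand: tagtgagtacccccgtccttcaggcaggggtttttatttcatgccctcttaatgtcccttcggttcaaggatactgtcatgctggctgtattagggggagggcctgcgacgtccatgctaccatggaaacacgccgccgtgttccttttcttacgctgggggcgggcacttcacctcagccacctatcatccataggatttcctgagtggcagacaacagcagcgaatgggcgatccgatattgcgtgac
Rad51ap1, chr6:126939588-126939837, minus strand: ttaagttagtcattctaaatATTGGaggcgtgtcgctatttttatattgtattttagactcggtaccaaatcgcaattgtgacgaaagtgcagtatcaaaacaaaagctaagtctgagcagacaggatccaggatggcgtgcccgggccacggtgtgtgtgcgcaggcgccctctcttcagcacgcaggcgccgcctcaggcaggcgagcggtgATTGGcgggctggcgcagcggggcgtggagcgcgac

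Library totals ran from 3616416 to 4831641 reads, and most of the 31 genes had few of them. Palb2 (4 to 12 reads per library), Xrcc2 (2 to 9) and Xrcc3 (0 to 5) were too sparse to test. The other 28 genes were tested, with median reads per library from 10 for Atm to 127 for Rbbp8 and a median of 28.25 over the genes. New, unannotated loci took 14.0 to 15.1% of reads at 12Gy_48h, 11.9 to 12.0% at 12Gy_24h, 15.1 to 16.9% at 4Gy_48h and 19.8 to 21.7% in control. A fit over all genes placed the median known gene at log2 0.20 at 12Gy_48h, 0.23 at 12Gy_24h and 0.14 at 4Gy_48h against control. The part of the new loci in this offset was not tested. A second fit to known genes alone put these medians at 0.01, -0.00 and -0.01, and each call below is given under both. The label of small intestinal epithelium was not matched by marker RNA: Epcam and Cdh1 had 2 reads each over all 12 libraries, and Cldn3, Cldn7, Lgr5, Olfm4, Muc2 and Alpi had 0, while Krt18 had 353. Of the 11 fibroblast and mesenchyme markers, Vim had 63111 reads, Col1a2 11434, Sparc 8693, Col1a1 526, Pdgfrb 103 and Pdgfra 71, while Dcn had 20, Col3a1 8, Acta2 2, Thy1 1 and Lum 0. Their summed level, most of it Vim, was 1669 to 2246 CPM (reads scaled by the library total) at 12Gy_48h, 2519 to 2982 at 12Gy_24h, 1413 to 1904 at 4Gy_48h and 807 to 1229 in control. Of the 10 immune markers, Ptprc, Cd3e, Adgre1 and Ms4a1 had 0 reads, and the summed level was 44.4 to 52.6 CPM at 12Gy_48h, 23.8 to 37.3 at 12Gy_24h and 17.4 to 23.2 at 4Gy_48h, against 24.0 to 30.2 in control. Cd68, a lysosomal protein abundant in macrophages and most of that sum, was called higher at 12Gy_48h against control in both fits (log2 0.94, edgeR adjusted p = 0.00225; known genes alone 0.76, adjusted p = 0.0166). The 6 endothelial markers had at most 3 reads each. The part of these shifts in the results was not tested.

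Calls among the recombination, Fanconi and checkpoint genes went both ways in the comparisons of 12 Gy with control and were all higher at 4Gy_48h in the fit over all genes. Over all 5 comparisons, 10 of the 28 tested genes were called at an edgeR quasi-likelihood adjusted p under 0.05 (Benjamini-Hochberg over all 15086 genes tested) in the fit over all genes, 8 in the fit to known genes alone and 11 in either. The share of all genes called in some comparison was not counted, so these totals show no excess. The comparison of 12Gy_24h with control alone called 30.5% of known genes in the fit over all genes. Of 16 calls in the fit over all genes, 7 were also made with known genes alone. These 7 were Trp53bp1 higher and Rad51ap1 lower at 12Gy_48h against control, Bard1 lower at 12Gy_24h against control, Fancg higher and Mre11a and Blm lower at 12Gy_48h against 12Gy_24h, and Rad51c lower at 12Gy_48h against 4Gy_48h. The authors' deposited table, with a stricter threshold, called Trp53bp1 and Mre11a in these comparisons and not the others. Its DESeq2 adjusted p was 0.0143 for Bard1, 0.0207 for Blm, 0.152 for Fancg, 0.16 for Rad51ap1 and 0.203 for Rad51c.

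The counts below are set beside the share of genes called by the same rule in the same comparison. At 12Gy_48h against control, 2 of the 28 genes were higher and 1 lower (3 of 28, 10.7%), where 33.1% of all genes tested and 22.0% of known genes were called, 18.2% of known genes higher and 3.74% lower. With known genes alone the count was 1 higher and 2 lower, and 14.8% of known genes were called (6.76% higher, 8.04% lower). The share of the 28 genes called lay below that of known genes over all genes and near it with known genes alone. Most of the 28 had few reads, which limits calling, and no background of like depth was set beside them. The difference was not tested.

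In the comparison of 12Gy_24h with control, 4 of the 28 were higher and 1 lower (17.9%), beside 48.0% of all genes and 30.5% of known genes (26.5% higher, 3.99% lower). Known genes alone gave 0 higher and 2 lower, beside 17.1% (9.15% higher, 7.91% lower). The 28 genes were called less often than this background in both fits, with the same limit of few reads, and the difference was not tested.

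For 4Gy_48h and control the count was 4 higher and 0 lower (14.3%), beside 17.6% of all genes and 7.09% of known genes (6.21% higher, 0.877% lower). With known genes alone none of the 28 was called by edgeR at 4Gy_48h, although 5 had an unadjusted p under 0.05, and the background was 1.32% (0.754% higher, 0.570% lower).

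Between 12Gy_48h and 12Gy_24h, 1 of the 28 was higher and 2 lower at 48 h in both fits (10.7%). The background was 32.0% of all genes and 25.6% of known genes (9.97% higher, 15.6% lower), and 23.7% with known genes alone (11.1% higher, 12.6% lower). Between 12Gy_48h and 4Gy_48h, 0 were higher and 1 was lower after the larger dose in both fits (3.57%), near the background of 4.69% of all genes and 4.34% of known genes (2.79% higher, 1.55% lower), and of 6.13% with known genes alone (2.91% higher, 3.22% lower).

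**Figure D1:**
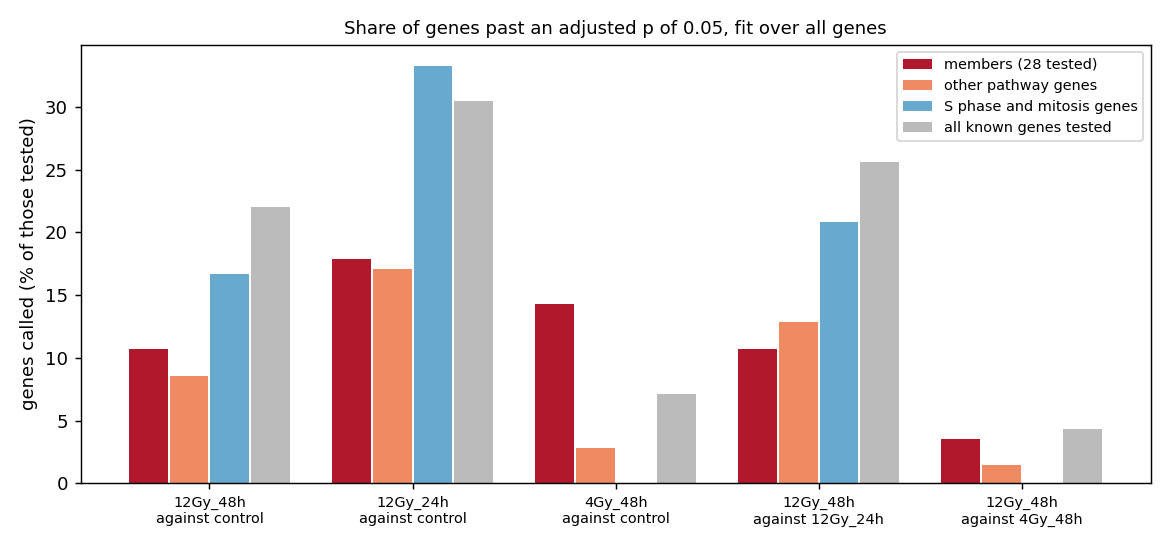
Percentage of tested genes past an adjusted p of 0.05 in the fit over all genes (y axis) in each of the 5 comparisons (x axis), for the 28 recombination, Fanconi and checkpoint genes (called members in the legend), 70 other genes of these pathways, 24 S phase and mitosis genes and 9809 known genes. The 28 genes reach 10.7% at 12Gy_48h and 17.9% at 12Gy_24h against control, where known genes reach 22.0% and 30.5%.

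The median log2 fold change of the 28 genes against control was 0.02 for 12Gy_48h, 0.00 for 12Gy_24h and 0.17 for 4Gy_48h, and the median over all genes tested was 0.01 in each. With known genes alone the medians of the 28 genes were -0.17, -0.23 and 0.02 in the same order, beside 0.01, -0.00 and -0.01 over the genes tested. The fit to known genes moves known genes alike, so these medians are best read beside those of known genes in the same fit, which were 0.20, 0.23 and 0.14 in the fit over all genes. In both fits the median of the 28 genes lay below that of known genes in both 12 Gy groups, and slightly above it at 4Gy_48h. Standard errors of the log2 fold changes against control ran from 0.150 to 0.423, and a gene that was not called is not shown to be unchanged.

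**Figure D2:**
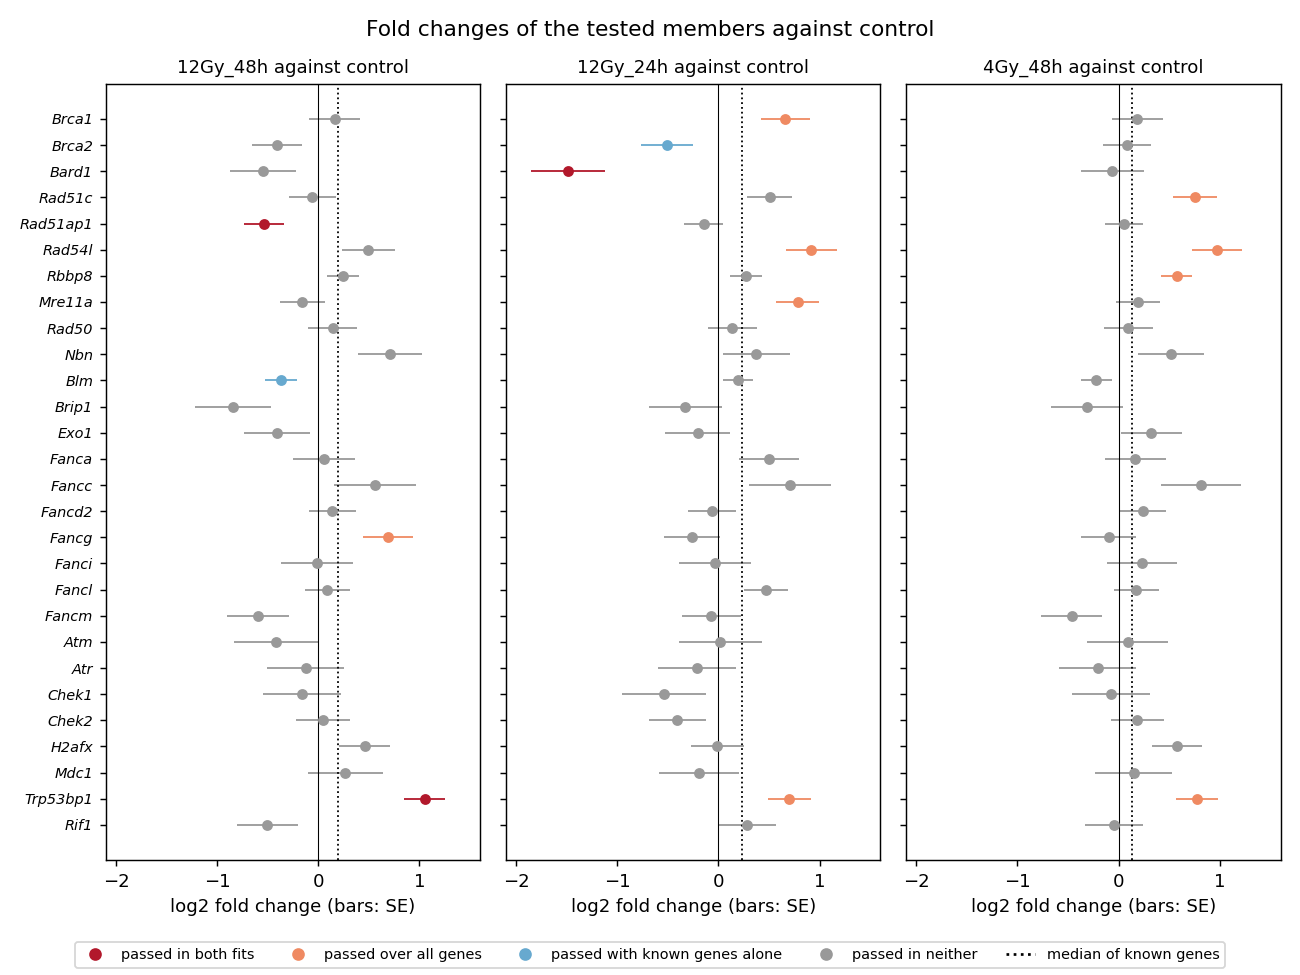
Log2 fold change against control (x axis; point and SE from the fit over all genes) of the 28 tested genes (y axis, ordered by role) at 12Gy_48h, 12Gy_24h and 4Gy_48h; colours give the fit in which a gene passed, and the dotted line marks the median of known genes. Bard1 at 12Gy_24h and Trp53bp1 at 12Gy_48h stand farthest from that line among genes that passed in both fits.

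Among the genes of break chromatin, Trp53bp1 (chr2:121193281-121271407, GRCm38), which encodes 53BP1 and restrains the cutting back of broken ends, was called higher in all 3 irradiated groups in the fit over all genes and at 12Gy_48h alone in the fit to known genes. Its level was 17.5, 22.2 and 14.4 CPM after TMM scaling at 12Gy_48h, 13.0, 16.3 and 13.1 in 12Gy_24h cells, and 17.7, 13.8 and 13.2 in 4Gy_48h cells, against 9.46, 8.45 and 8.04 in control. No irradiated library overlapped a control library. The log2 fold change at 12Gy_48h was 1.05 (SE 0.202, edgeR adjusted p = 0.000928), and 0.87 with known genes alone (adjusted p = 0.00721). It passed in the fit over all genes whichever library was left out; with known genes alone it missed the threshold without 12Gy_48h replicate 2 (log2 0.69, adjusted p = 0.0524). At 12Gy_24h the change was 0.70 (SE 0.209, adjusted p = 0.0105) and at 4Gy_48h 0.78 (SE 0.206, adjusted p = 0.0156). Neither of these held with known genes alone (0.47, adjusted p = 0.129, and 0.63, adjusted p = 0.141), and the 4 Gy call was also lost without 4Gy_48h replicate 1 (0.65, adjusted p = 0.0791). In the authors' deposited table, by a stricter threshold, Trp53bp1 was called higher at 12Gy_48h (log2 1.05, DESeq2 adjusted p = 0.00146) and not at 12Gy_24h or 4Gy_48h. Trp53bp1 shares 2130 exonic bases with Tubgcp4 on the opposite strand, and the strand setting of the counting is not given in the sources used here. Tubgcp4 itself had log2 fold changes of -0.21, 0.02 and -0.04 at 12Gy_48h, 12Gy_24h and 4Gy_48h against control, none of them called.

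The other genes of break chromatin, H2afx, Mdc1 and Rif1, were not called in either fit. H2afx, the histone variant whose phosphorylation marks breaks, had 16.5, 16.3 and 18.3 scaled CPM at 12Gy_48h, 13.3, 11.0 and 12.5 in 12Gy_24h cells, and 19.7, 22.5 and 13.2 in 4Gy_48h cells, against 18.3, 9.47 and 8.84 in control. The groups overlapped, with 1 control library as high as most irradiated ones, and the change at 12Gy_48h was 0.46 (SE 0.251, adjusted p = 0.173). Without that library, control replicate 1, it was 0.90 (adjusted p = 0.00826), and 1.02 at 4Gy_48h (adjusted p = 0.00617), where it had been 0.58 (adjusted p = 0.121). Rif1, the partner of 53BP1 at breaks, had 3.66, 4.84 and 4.44 scaled CPM at 12Gy_48h, against 7.43, 8.54 and 6.42 at 12Gy_24h. The groups did not overlap, and the log2 difference of -0.79 (SE 0.297) just missed the threshold (adjusted p = 0.0525; known genes alone -0.74, adjusted p = 0.0722). It passed under 5 alternatives, among them RLE scaling (-0.86, adjusted p = 0.0352) and no filter (-0.87, adjusted p = 0.0343), and without 12Gy_24h replicate 3 (-0.98, adjusted p = 0.0392).

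In the BRCA group Bard1 was lower at 12Gy_24h in both fits, while Brca1 was called higher there over all genes and Brca2 lower with known genes alone, each in that fit only. Bard1 (chr1:71027498-71103146), the obligate partner of BRCA1 in its ubiquitin ligase, had 2.39, 2.48 and 3.50 scaled CPM at 12Gy_24h, against 11.6, 6.40 and 5.09 in control. All 3 libraries at 12Gy_24h lay below all 3 controls, 1 of which was high. The log2 fold change was -1.49 (SE 0.369, adjusted p = 0.00308), and -1.72 with known genes alone (adjusted p = 0.00359). It passed in both fits whichever library was left out, with adjusted p from 0.00193 to 0.0285 in the fit over all genes. At 12Gy_48h Bard1 had 7.59, 3.31 and 5.23 scaled CPM and at 4Gy_48h 7.53, 6.66 and 8.36, both overlapping control. The 48 h minus 24 h difference after 12 Gy was 0.94 (SE 0.392, adjusted p = 0.0767).

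Brca1 (chr11:101488764-101551955), which promotes resection of broken ends, had 22.8, 17.9 and 31.8 scaled CPM at 12Gy_24h, against 12.5, 19.5 and 13.9 in control. The groups overlapped, and 1 library at 12Gy_24h was well above the others. The log2 fold change of 0.66 (SE 0.243, adjusted p = 0.0327) was not called with known genes alone (0.43, adjusted p = 0.235). It was also lost without 12Gy_24h replicate 3 (0.55, adjusted p = 0.0838), without control replicate 1 (0.54, adjusted p = 0.109) and without control replicate 3 (0.68, adjusted p = 0.0577). Brca2 (chr5:150522630-150570329), which acts in repair from the sister chromatid, had 6.80, 5.60 and 5.49 scaled CPM at 12Gy_48h and 5.57, 4.96 and 6.13 at 12Gy_24h, against 7.31, 7.68 and 8.84 in control. Both 12 Gy groups lay below every control. Brca2 passed only with known genes alone and only at 12Gy_24h (-0.75, adjusted p = 0.0478), against -0.51 (SE 0.256, adjusted p = 0.113) over all genes; with known genes alone that call was lost in 5 of the 6 fits that left out a library (highest adjusted p = 0.142).

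A ratio of reads within a library does not depend on scaling, and 8 pairs of partner genes were compared in this way in the 5 comparisons, after their values had been seen. With 3 libraries a side the smallest exact two-sided permutation p is 0.1, and over the 40 tests the smallest adjusted value was 0.571, so none could pass. The pairs printed here are those whose groups were apart in some comparison. The other pairs overlapped in every comparison. The ratios use the same reads as the calls of these genes, so they are not separate evidence. Reads of Bard1 per read of Brca1 were 0.105, 0.138 and 0.110 at 12Gy_24h, against 0.931, 0.329 and 0.365 in control. Every library at 12Gy_24h lay below every control, a mean log2 difference of -2.04. Reads of Trp53bp1 per read of Rif1 were 4.79, 4.58 and 3.24 at 12Gy_48h, against 1.69, 1.83 and 0.968 in control, again without overlap (1.52 on the log2 scale). Reads of Mre11a per read of Rad50 were 1.02, 1.02 and 0.955 at 12Gy_48h, against 1.80, 2.94 and 1.45 at 12Gy_24h, also without overlap (-0.99 on the log2 scale). The ratio of Mre11a to Rad50 in control, 0.871 to 1.70, overlapped both 12 Gy groups.

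**Figure D3:**
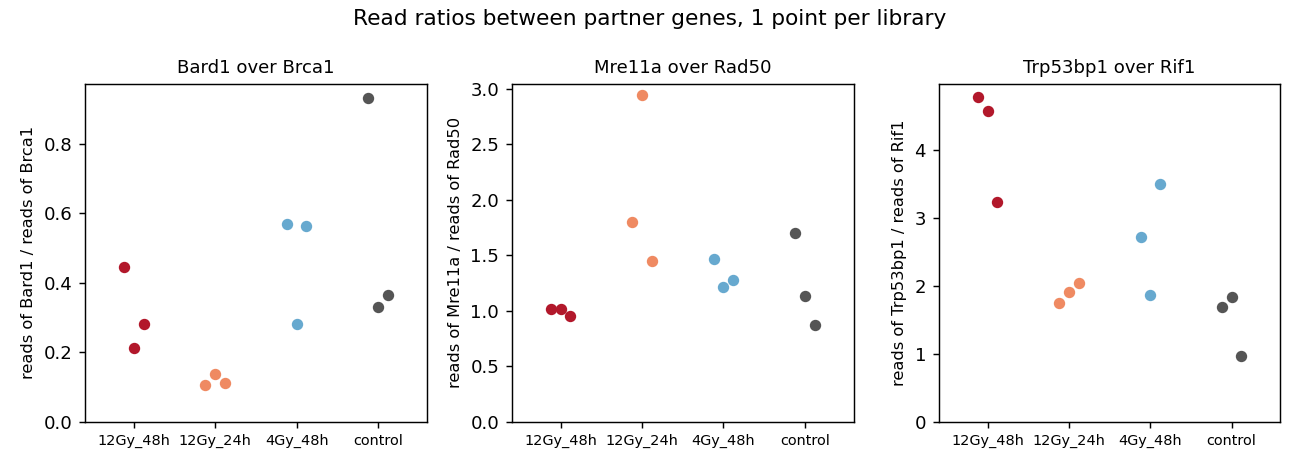
Reads of 1 gene divided by reads of its partner (y axis) in each library, by group (x axis), for Bard1 over Brca1, Mre11a over Rad50 and Trp53bp1 over Rif1. The 3 libraries at 12Gy_24h sit at 0.105 to 0.138 in the first panel, below every other library. The pairs shown are those whose groups were apart in some comparison.

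Of the genes of end resection, Mre11a changed with time after 12 Gy. Mre11a (chr9:14784654-14837123), the nuclease of the break-sensing complex, had 14.7, 13.5 and 16.7 scaled CPM at 12Gy_48h, 31.6, 29.2 and 25.4 in 12Gy_24h cells, and 21.3, 22.2 and 13.8 in 4Gy_48h cells, against 22.3, 12.8 and 14.5 in control. The libraries at 12Gy_24h were above all others. At 12Gy_48h against 12Gy_24h the log2 difference was -0.94 (SE 0.216, adjusted p = 0.00367; known genes alone -0.89, adjusted p = 0.00466), and it passed in both fits whichever library was left out. Against control at 12Gy_24h the change was 0.78 (SE 0.211, adjusted p = 0.00551), which passed whichever library was left out but not with known genes alone (0.55, adjusted p = 0.0667). The authors' deposited table also called Mre11a higher at 12Gy_24h against control (log2 0.856, adjusted p = 0.00359) and lower at 12Gy_48h against 12Gy_24h (-0.990, adjusted p = 9.79e-05). Mre11a shares 154 exonic bases with Ankrd49 on the opposite strand. Ankrd49 moved the same way, by 0.77 at 12Gy_24h against control (adjusted p = 0.00217) and by -0.65 at 12Gy_48h against 12Gy_24h (adjusted p = 0.0123), and without the strand setting reads of the 154 shared bases cannot be assigned.

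The other subunits of that complex, Rad50 and Nbn, were not called. Against control, the Rad50 log2 fold change was 0.14 in each 12 Gy group and 0.10 in the 4 Gy group, each with an SE of 0.24. Nbn had 5.49, 12.2 and 11.2 scaled CPM at 12Gy_48h, against 7.52, 4.87 and 5.09 in control; the groups overlapped, and the change of 0.71 (SE 0.319) missed the threshold (adjusted p = 0.0972) but passed without 12Gy_48h replicate 1 (1.01, adjusted p = 0.0219) and without a filter (0.78, adjusted p = 0.0347). Exo1, a resecting nuclease, lay between -0.73 and 0.32 over the 5 comparisons. Rbbp8 (chr18:11633276-11745221), whose product CtIP starts resection, had 38.7, 42.4 and 45.9 scaled CPM at 4Gy_48h, against 22.6, 31.2 and 31.9 in control. All 3 libraries at 4Gy_48h were above all controls, and the log2 fold change was 0.57 (SE 0.156, adjusted p = 0.0182). The call was lost with known genes alone (0.42, adjusted p = 0.21), without 4Gy_48h replicate 2 (0.58, adjusted p = 0.0502) and without control replicate 1 (0.43, adjusted p = 0.0564).

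**Figure D4:**
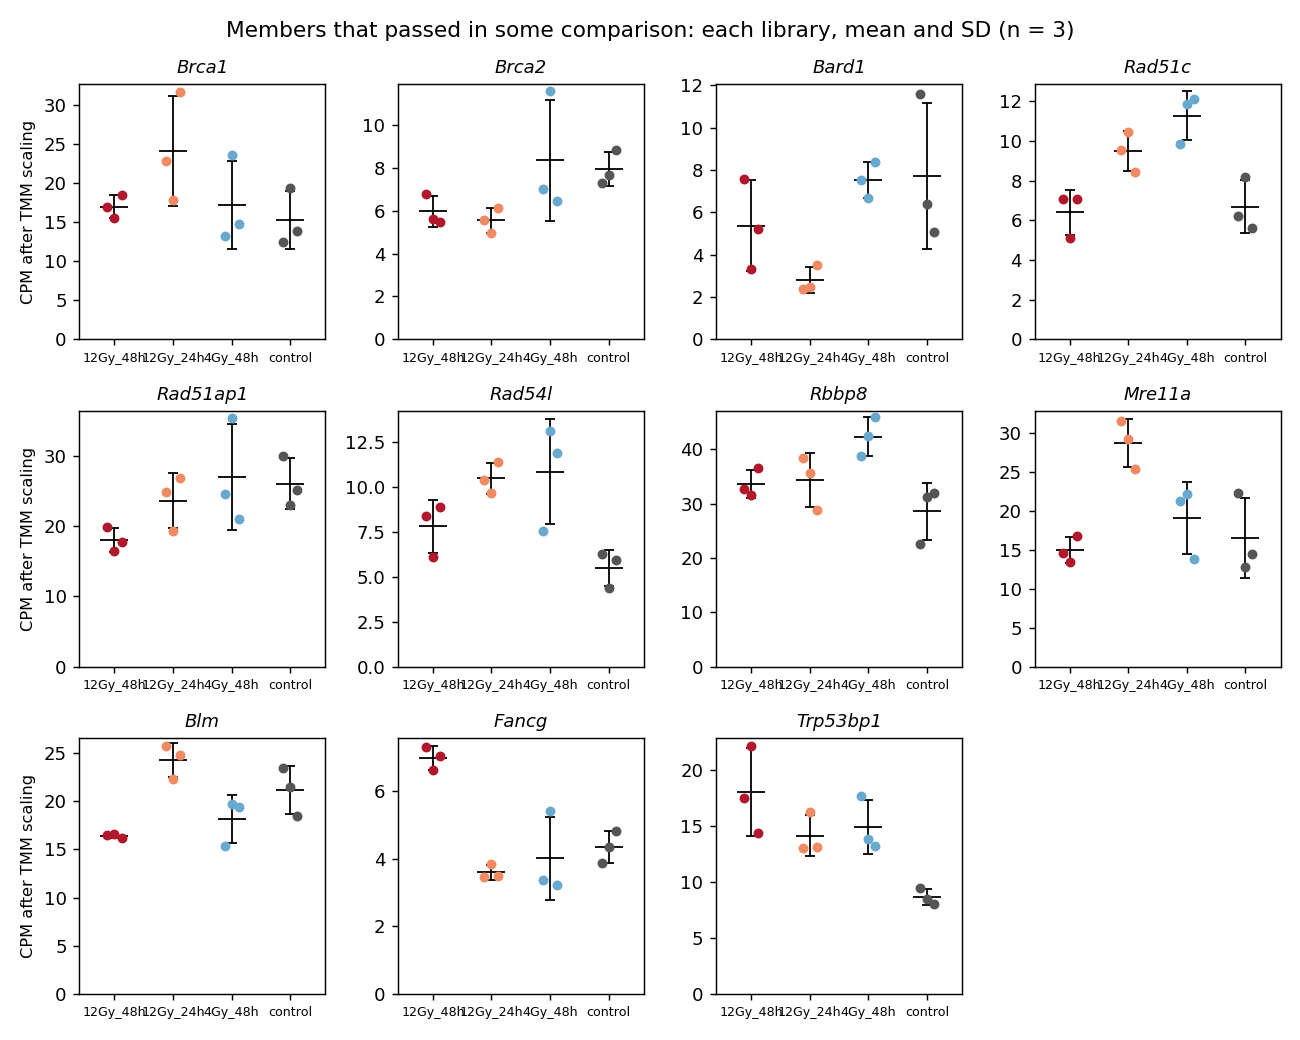
CPM after TMM scaling (y axis) of the 11 genes that passed in some comparison in either fit, by group (x axis); points are libraries, and bars give the mean and SD of 3. By mean, Mre11a and Blm are highest at 12Gy_24h, Bard1 is lowest there, Fancg is highest at 12Gy_48h and Trp53bp1 is lowest in control.

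Of the 3 genes of strand exchange that could be tested, Rad51ap1 was lower at 12Gy_48h against control and Rad51c lower at 12Gy_48h against 4Gy_48h in both fits, and none was called in either fit between the times after 12 Gy. Rad51ap1 (chr6:126923050-126939587), which stimulates DNA strand exchange, had 19.9, 16.6 and 17.8 scaled CPM at 12Gy_48h, against 30.1, 23.0 and 25.2 in control. Every library at 12Gy_48h lay below every control. The log2 fold change was -0.53 (SE 0.197, adjusted p = 0.0463), and -0.72 with known genes alone (adjusted p = 0.0144). In the fit over all genes the call was lost whichever of the 6 libraries was left out (adjusted p from 0.0568 to 0.18), and with known genes alone it was lost without 12Gy_48h replicate 2 (-0.66, adjusted p = 0.0725) and without control replicate 1 (-0.62, adjusted p = 0.0549). At 12Gy_24h it had 24.9, 19.3 and 26.8 scaled CPM and at 4Gy_48h 24.7, 35.5 and 21.0, both overlapping control.

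Rad54l (chr4:116094264-116123690), a DNA motor protein of homologous recombination, had 10.4, 9.64 and 11.4 scaled CPM at 12Gy_24h and 7.53, 13.1 and 11.9 at 4Gy_48h, against 6.23, 4.35 and 5.89 in control. Neither irradiated group overlapped control. The log2 fold changes were 0.92 (SE 0.252, adjusted p = 0.00624) at 12Gy_24h and 0.97 (SE 0.249, adjusted p = 0.0129) at 4Gy_48h. With known genes alone they were 0.68 (adjusted p = 0.066) and 0.82 (adjusted p = 0.107), and the 4 Gy call was lost without 4Gy_48h replicate 2 (0.82, adjusted p = 0.0718). At 12Gy_48h Rad54l had 8.37, 6.11 and 8.89 scaled CPM, which overlapped control. Rad54l shares 1184 exonic bases with Lrrc41 on the opposite strand, which was not called at 12Gy_24h (0.06) or 4Gy_48h (0.10) against control.

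Rad51c (chr11:87376645-87404954), which acts in homologous recombination, was lower after the larger dose than after the smaller at 48 h. It had 7.06, 5.09 and 7.06 scaled CPM at 12Gy_48h, 9.55, 10.5 and 8.46 in 12Gy_24h cells, and 9.87, 11.8 and 12.1 in 4Gy_48h cells, against 6.23, 8.19 and 5.63 in control. The libraries at 4Gy_48h and 12Gy_24h were above those at 12Gy_48h and in control, without overlap. For 12Gy_48h against 4Gy_48h the log2 difference was -0.82 (SE 0.219, adjusted p = 0.0431; known genes alone -0.85, adjusted p = 0.0293). That call was lost in the fit over all genes whichever of the 6 libraries was left out (adjusted p from 0.0571 to 0.204), and in DESeq2 (adjusted p = 0.0832). Against control the change at 4Gy_48h was 0.75 (SE 0.216, adjusted p = 0.0234), and 0.61 with known genes alone (adjusted p = 0.185). The 4 Gy call was also lost without 4Gy_48h replicate 2 (0.73, adjusted p = 0.0746), 4Gy_48h replicate 3 (0.71, adjusted p = 0.0525), control replicate 1 (0.71, adjusted p = 0.0544) or control replicate 3 (0.69, adjusted p = 0.0766). For 12Gy_48h against 12Gy_24h, Rad51c passed only under alternatives: RLE scaling (-0.64, adjusted p = 0.0381) and without 12Gy_24h replicate 3 (-0.74, adjusted p = 0.0397). The same held at 12Gy_24h against control, among others with RLE scaling (0.55, adjusted p = 0.0495) and no filter (0.66, adjusted p = 0.0366).

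Of the helicases, Blm (chr7:80454733-80535119), which unwinds recombination intermediates, had 16.5, 16.6 and 16.2 scaled CPM at 12Gy_48h, 25.7, 22.3 and 24.8 in 12Gy_24h cells, and 15.3, 19.7 and 19.4 in 4Gy_48h cells, against 23.4, 21.5 and 18.5 in control. The libraries at 12Gy_48h lay close together, below those at 12Gy_24h and in control. For 12Gy_48h against 12Gy_24h the log2 difference was -0.56 (SE 0.155, adjusted p = 0.0112; known genes alone -0.52, adjusted p = 0.0188). It passed in the fit over all genes whichever library was left out; with known genes alone it was lost without 12Gy_48h replicate 1 (-0.52, adjusted p = 0.0533), 12Gy_48h replicate 2 (-0.52, adjusted p = 0.0606) or 12Gy_24h replicate 1 (-0.47, adjusted p = 0.0631). Against control at 12Gy_48h, Blm passed only with known genes alone (-0.56, adjusted p = 0.0186), against -0.37 (adjusted p = 0.0775) over all genes, and that call was lost in 4 of the 6 fits without a library (highest adjusted p = 0.0605). Brip1, the helicase partner of BRCA1, was not called, with its lowest value at 12Gy_48h against control (-0.84, SE 0.377, adjusted p = 0.0974); it passed there without 12Gy_48h replicate 3 (-1.24, adjusted p = 0.0418).

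Of the 7 Fanconi genes, 5 of the core and anchor and 2 of the ubiquitinated pair, Fancg alone passed in either fit. Fancg (chr4:43002343-43010506), a scaffold of the core complex, had 7.33, 6.62 and 7.06 scaled CPM at 12Gy_48h, 3.45, 3.86 and 3.50 in 12Gy_24h cells, and 3.38, 5.43 and 3.24 in 4Gy_48h cells, against 3.87, 4.35 and 4.82 in control. Each library at 12Gy_48h was above all of the others. The log2 difference of 12Gy_48h against 12Gy_24h was 0.95 (SE 0.264, adjusted p = 0.0119), and 1.00 with known genes alone (adjusted p = 0.00993). It was lost without 12Gy_24h replicate 3 in the fit over all genes (0.83, adjusted p = 0.0578) and in DESeq2 (0.88, adjusted p = 0.0804), and with known genes alone it passed whichever library was left out. Against control at 12Gy_48h it was 0.69 (SE 0.251, adjusted p = 0.0437), a call lost whichever library was left out (adjusted p from 0.053 to 0.11) and with known genes alone (0.51, adjusted p = 0.176). Fancg had 12 to 28 reads per library, so these levels carry wide counting error.

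The remaining Fanconi genes were not called in either fit; Fancl passed at 12Gy_24h against control without a filter (0.63, adjusted p = 0.0219), without 12Gy_24h replicate 3 (0.65, adjusted p = 0.0369) and without control replicate 2 (0.74, adjusted p = 0.017). Fanca, Fancc and Fancl of the core and the anchor Fancm ran from log2 -0.59 to 0.56 at 12Gy_48h, with Fancm lowest and Fancc highest. Fancd2 and Fanci are the pair that receives ubiquitin. Fancd2 had log2 fold changes of 0.14, -0.07 and 0.24 in the 12Gy_48h, 12Gy_24h and 4Gy_48h groups against control. Fanci had -0.01, -0.03 and 0.23 in the same groups. Fanci had only 8 to 20 reads per library, and reads of Fancd2 per read of Fanci ran from 1.8 to 4.9 in control. These values do not show that the pair moves together. Exons of Fanca, Fancc, Fancd2, Fanci and Fancl overlap those of neighbours on the opposite strand, so their counts may include reads of those neighbours.

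None of the checkpoint kinases passed in either fit. Atm and Atr, which sense breaks and single-stranded DNA, and their targets Chek1 and Chek2 ran from log2 -0.41 to 0.04 at 12Gy_48h, from -0.54 to 0.02 at 12Gy_24h and from -0.20 to 0.18 at 4Gy_48h against control. In the fit over all genes 0 of the 4 had an unadjusted p under 0.05 in these comparisons; with known genes alone 1 did, at 12Gy_24h. Atm had 5 to 17 reads per library and Chek1 6 to 23, and the SE of Atm at 12Gy_48h was 0.423.

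These pathways hold many other genes, and 73 of them were examined beside the 31, of which 70 could be tested. Against control, 4 were higher and 2 lower at 12Gy_48h (8.57%), while 12Gy_24h had 7 higher and 5 lower (17.1%) and 4Gy_48h had 2 higher and 0 lower (2.86%). With known genes alone 12Gy_48h had 0 higher and 11 lower, 12Gy_24h had 3 higher and 10 lower, and 4Gy_48h had none of either by edgeR (10 with an unadjusted p under 0.05). Known genes as a whole also had fewer higher and more lower calls in that fit, but there their calls were nearly balanced. They were 6.76% higher and 8.04% lower at 12Gy_48h, and 9.15% higher and 7.91% lower at 12Gy_24h. The lean of the 70 toward lower calls was not tested. Rpa3, the small subunit of the RPA complex that coats single-stranded DNA, had a log2 fold change of -0.62 at 12Gy_48h (SE 0.112, adjusted p = 0.000583) and -0.35 at 12Gy_24h (adjusted p = 0.0156), and passed in both fits at both times. Tipin, a replication fork protection factor, likewise had -0.58 (adjusted p = 0.012) and -0.48 (adjusted p = 0.0207). Cdc25b, a phosphatase that opens entry to mitosis, had 0.98 at 12Gy_24h (SE 0.171, adjusted p = 0.000167; known genes alone 0.74, adjusted p = 0.00474). At the same time Brcc3, a deubiquitinase of the BRCA1-A complex, had 0.66 (adjusted p = 0.000863), and Slx1b, a structure-specific nuclease, had 1.03 (adjusted p = 0.00141); both passed with known genes alone. Swi5, a recombination mediator, had 0.46 at 12Gy_48h (adjusted p = 0.00211), a call lost in the fit to known genes (0.27, adjusted p = 0.0706).

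Between the times after 12 Gy, 1 of the 70 was higher and 8 were lower at 12Gy_48h against 12Gy_24h (12.9%). Faap24 of the Fanconi core had -1.15 (SE 0.269, adjusted p = 0.00436) and Smc6, of the complex that untangles recombining chromosomes, had -0.62 (adjusted p = 0.00501); both passed in both fits. Mre11a and Blm moved the same way in this comparison and Fancg the opposite way. At 12Gy_48h against 4Gy_48h, 0 were higher and 1 lower, Rpa3 (-0.43, adjusted p = 0.0405).

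Since many of these genes are used in dividing cells, 24 genes of S phase and mitosis were read in the same fits. Against control, 2 were higher and 2 lower at 12Gy_48h (16.7%) and 6 were higher and 2 lower at 12Gy_24h (33.3%). The edgeR test called 0 at 4Gy_48h in either fit, with 5 at an unadjusted p under 0.05 over all genes and 1 with known genes alone. With known genes alone 0 were higher and 3 lower at 12Gy_48h, and 2 were higher and 3 lower at 12Gy_24h. Mki67, a marker of cycling cells, was -0.76 at 12Gy_24h (SE 0.162, adjusted p = 0.000918) and Cenpf, a kinetochore protein, -0.76 (adjusted p = 0.000269), while Gins2 of the replicative helicase was 0.79 (adjusted p = 0.000535) and Ccne2, cyclin E2, 0.84 (adjusted p = 0.00272); all 4 passed in both fits. The 33.3% at 12Gy_24h is near the 30.5% of known genes called there, and the 16.7% at 12Gy_48h lies under their 22.0%. The part of cell cycle phase in the results was not tested, and fewer cells of a kind and less RNA per cell cannot be told apart in these bulk libraries.

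The read-weighted mean length of the longest annotated transcripts of known genes was 2348 ± 1.87 nt at 12Gy_48h, 2273 ± 4.16 nt at 12Gy_24h and 2279 ± 24.7 nt at 4Gy_48h, against 2240 ± 53.1 nt in control (SD, n = 3 each). This index follows which genes hold the reads and does not measure the length of the molecules sequenced. The 31 genes are long, with a median of 4770 nt against 3399 nt over 9474 known genes with reads enough to compare. The part of transcript length in the results was not tested.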

How the data were processed

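RNA of 12 MODE-K libraries was analysed from a table of genes. The submitters' processing notes name cutadapt 1.9 and FastQC. For the aligner, genome build, annotation, platform and strand setting, no name was found in those notes, the labels or the file header. The deposited table holds read counts per gene, unnormalized, and CPM that the authors made by dividing counts by the library total; recomputed values differed by at most 4.78e-06. It also holds other values, the log2 fold changes and adjusted p-values of the authors' DESeq2 comparisons, quoted only where named. Of 33636 lines, 11 were overflow of a long cell and were dropped.

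The gene test was edgeR 4.0.16 (R 4.3.3) on the counts, after filterByExpr and TMM scaling, by quasi-likelihood with a mean for each group over the 12 libraries. Tests were two-sided, with Benjamini-Hochberg adjustment over the 15086 genes kept and a threshold of 0.05. The fit to known genes alone kept 9816 genes. Alternatives were RLE scaling, DESeq2 1.42.0, no filter, a filter at 5 CPM, known genes alone, a replicate block, the 2 groups compared alone, and leaving out each library; leaving out libraries with known genes alone was added after the data were seen. The fit was tested on simulated data. Scaled CPM is the CPM over the TMM-scaled library total. Gene positions and overlaps come from GENCODE M21 (GRCm38) and promoters from RefSeq (GRCm38.p6). The members and the gene lists were chosen with earlier results of these data known. Library values are given for every member that passed in some comparison in either fit; of the other lists, up to 4 called genes per comparison are named, by adjusted p.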

Additional observations from a re-analysis of the deposited data

Results flagged for a closer look

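Differences between irradiated groups were flagged where the test of the difference itself passed. Between 48 h and 24 h after 12 Gy, 3 genes did so: Fancg (log2 0.95, 48 h over 24 h, higher in 3 of 3 libraries), Blm (-0.56, lower in 3 of 3) and Mre11a (-0.94, lower in 3 of 3). Between 12 Gy and 4 Gy at 48 h, Rad51c did so (-0.82, 12 Gy over 4 Gy, lower in 3 of 3 libraries), although its call in the fit over all genes was lost whichever of the 6 libraries was left out. In that fit the Fancg call was lost without 12Gy_24h replicate 3 (adjusted p = 0.0578), and it was lost in DESeq2 (adjusted p = 0.0804). With known genes alone the Blm call was lost in 3 of the fits that left out a library.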

How the results depend on the processing

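No log2 fold change that passed changed sign under any alternative run. In the fit over all genes 3 members were called at 12Gy_48h, 5 at 12Gy_24h and 4 at 4Gy_48h against control, 3 at 12Gy_48h against 12Gy_24h and 1 at 12Gy_48h against 4Gy_48h. DESeq2 gave 1 at 12Gy_48h and 0 for the dose comparison. RLE scaling gave 5 for the time comparison. Without a filter there were 8 at 12Gy_24h, 5 for the time comparison and 0 for the dose comparison. Known genes alone gave 2 at 12Gy_24h and 0 at 4Gy_48h. Leaving out each library in turn gave 1 to 2 at 12Gy_48h, 4 to 7 at 12Gy_24h, 1 to 4 at 4Gy_48h, 3 to 4 for time and 0 to 0 for dose; with known genes alone the ranges were 0 to 3, 1 to 3, 0 to 1, 2 to 3 and 0 to 1. The low count at 12Gy_48h came without 12Gy_48h replicate 2, control replicate 2 or control replicate 3, and that at 4Gy_48h without 4Gy_48h replicate 2. The cause of these shifts was not tested, beyond fewer libraries in those that leave 1 out.

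Replicate numbers did not pair the libraries: deviations of same-numbered libraries correlated from -0.111 to 0.125 (18 pairs, median -0.01), and those of differently numbered libraries from -0.125 to 0.167 (36 pairs). The replicate block gave 1 call at 12Gy_48h and 0 for the dose comparison, and left the other 3 counts within 1.5 times. Median reads per library ran from 10 to 127 over the tested members.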
